A study of Mus musculus with 4 samples.

Results

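The RNA of control mouse brown preadipocytes was separated with an antibody against N6-methyladenosine (m6A), and the antibody-bound RNA (IP) was compared with the RNA left in the supernatant (Sup) on 1 array with 2 dyes. These are 2 of the 4 samples of the series. Probes of the array's own content that carried no outlier flag and stood well above background in at least 1 fraction were kept, which gave 51145 of 60811 probes (84.1%). The control cells came from EP3F/F mice, in which the alleles of EP3, a receptor for prostaglandin E2, are floxed, with the genotype label CON. The other genotype, labelled EP3 cKO, was Myf5CreEP3F/F, which adds Cre under Myf5 to the same floxed alleles, and its values stand here only beside those of the control. Cells were sorted as Lin−CD29+CD34+Sca1+ from mice aged 8 weeks, described as male on the IP samples, while the gender entry of the Sup samples holds no sex. Each genotype was 1 pool of about 30 mice, so the spread between animals was not measured. Both fractions came from total RNA. IP was labelled with Cy5 and Sup with Cy3, with no dye swap, so a difference between fractions and a difference between dyes cannot be told apart.

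m6A is a methyl mark placed on adenosines of messenger and long non-coding RNA by a complex of METTL3 and METTL14, removed by the demethylases FTO and ALKBH5, and read by proteins with a YTH domain, which act on splicing, translation and decay of the marked transcript. FTO is also known for its association with body fat. An antibody that binds the mark splits a transcript's molecules between bound and unbound RNA, and the ratio of the fractions orders transcripts by how much of their RNA was retained. The ratio used here is log2 of IP over Sup after each fraction was divided by its own median, so 0 marks the typical probe and not equal amounts, and no percentage of methylated molecules follows from it.

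Of the 60811 probes, 78.9% were well above background in IP and 80.7% in Sup, and no spot was saturated, a count of 0. Both fractions held 45949 of these probes, IP alone 2059, Sup alone 3137, and neither fraction 9666. The median processed signal over the shared probes was 432 in IP and 427 in Sup. Of the 308 spots of the 3xSLv1 negative control, taken before any outlier filter, 5 stood well above background in IP and 1 in Sup. Of the 282 of these spots kept for the control ratios, 0 did so in IP and 0 in Sup. The pooled SD of the log2 ratio between repeated spots was 0.15 over 45 probes with 419 spots, 0.22 for the dimmer 15 of these probes and 0.10 for the brighter 30. The array was cut into 16 blocks by position, and their medians ran from -0.17 to -0.02. The labelled cell type could not be checked, because 0 of 8 listed brown preadipocyte markers and only 1 of 25 cell type markers in all, Mbp of myelinating cells, has a probe with a gene name. With 1 array per genotype nothing below has a replicate check or a test, and precision is limited by the number of arrays. A probe is called higher or lower in IP at a ratio of at least 2-fold, which is a description of size.

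Across the 45949 probes seen in both fractions, bound and unbound RNA were much alike in level, and the ratio spread to both sides by similar amounts. The log2 signals of the fractions correlated with r = 0.90 (Spearman's rho 0.87) over probes that shared the array, the RNA pool and the dye correction, and genes are not independent replicates. The ratio had a median of -0.08, an SD of 1.12 and a range from -6.63 to 4.65. Its middle 50% lay between -0.71 and 0.63, its 5th percentile at -1.75 and its 95th at 1.95. At least 2-fold higher in IP were 7948 probes, or 17.3%, and at least 2-fold lower were 7720, or 16.8%, so that 65.9% lay within 2-fold. At 4-fold the counts were 2115 higher and 1408 lower, and at 8-fold 320 and 277. At 16-fold the order was turned, with 15 probes higher and 60 lower.

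The even split of high and low probes depends on the constants by which the fractions are scaled. Of all probes past 2-fold, 50.7% were higher in IP with each fraction scaled to its median. Without this step the share was 51.7% (8072 higher, 7555 lower). The processed signals had by then already passed the dye normalisation of the scanner software. With the constants of the authors' deposited value table the median probe moved by -0.39 and 27.8% of probes past 2-fold were higher (4994 higher, 13000 lower). Scaling to the probes named SPINKEIN moved the median by 0.76 and made 88.3% higher (16920 higher, 2250 lower). Directions below are therefore relative to the median probe.

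Relative to the median probe, the genes that could be named included several with more signal in the bound fraction, among them the fatty acid oxidation gene Cpt1a, the early endosome gene Rab5a and the nuclear pore gene Nup50, and a pair with more signal in the unbound fraction, the peroxidase gene Prdx2 and the peroxisome gene Pex11a. The files give an accession for 50 probes, each spotted 10 times, and 45 of them matched a gene symbol, 1 probe per gene. Of the 45 genes, 41 were seen in both fractions, 12 were higher in IP (29.3%), 2 were lower (4.88%) and 27 lay within 2-fold. Over all probes seen in both fractions the shares were 17.3% and 16.8%. The median of the 41 genes was 0.51, against -0.08 for all probes. These probes were brighter than most, with 29 of the 41 in the brighter of 2 equal sets of probes, where 21.8% of all probes were higher and 21.6% lower. The repeated spots of 37 of the 41 genes all lay on one side of 0. SD below means the spread between the spots of 1 probe, a technical error only.

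**Figure D1:**
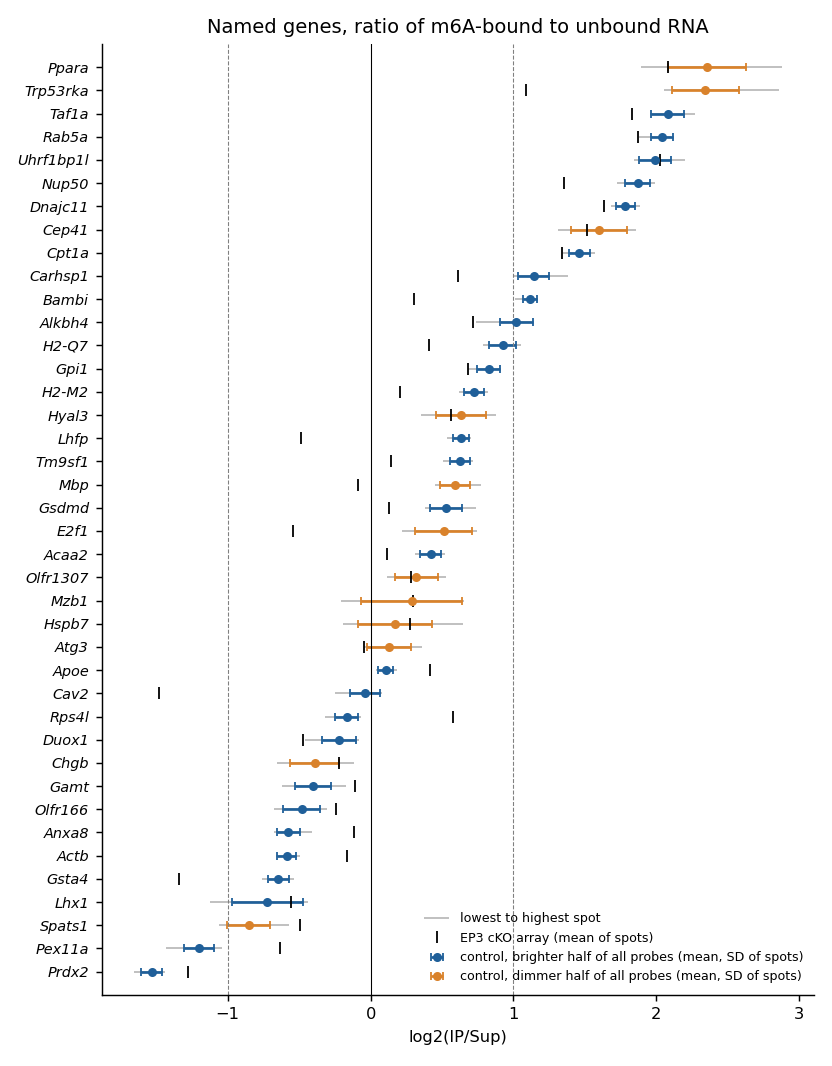
Log2 ratio of IP to Sup for the 40 genes shown, 1 row per gene, in order of the ratio. Coloured points are means over the repeated spots of the control array with their SD, blue for genes in the brighter of 2 equal sets of all probes and orange for the dimmer, grey lines run from the lowest to the highest spot, black ticks are the mean of the EP3 cKO array, and dashed lines mark 2-fold. Ratios run from -1.53 for Prdx2 to 2.36 for Ppara, and the pooled spot SD of dimmer probes, 0.22, is wider than the 0.10 of brighter ones.

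Among genes of fat oxidation and the peroxisome, 1 of 3 was higher in IP and 1 lower, with a median of 0.42. Cpt1a, the mitochondrial carnitine palmitoyltransferase that gates the entry of long-chain fatty acids, read 2689 in IP and 966 in Sup. Its log2 ratio was 1.46 ± 0.07 (SD, n = 10 spots), and it was past 2-fold under all 12 alternative settings. Settings that only filter probes cannot move a gene's ratio, so here and below they add to the count without testing it. Acaa2, the thiolase of the last step of mitochondrial beta oxidation, read 5829.8 in IP and 4308 in Sup, a log2 ratio of 0.42 ± 0.07 (n = 7 spots). Pex11a, which drives the division of peroxisomes, read 6201 in IP and 14092.5 in Sup, a log2 ratio of -1.20 ± 0.11 (n = 10 spots). The spots of Cpt1a lay between 1.35 and 1.57 and those of Pex11a between -1.43 and -1.04. These genes of the same metabolic field thus lay on opposite sides of 0. Pex11a ran from -1.59 to -0.44 over the alternative settings. Ppara, the nuclear receptor that switches on fatty acid oxidation genes, read 393 in IP and 75.9 in Sup. Its log2 ratio of 2.36 ± 0.27 (n = 10 spots) was the highest of the genes shown, but its probe was dim, and the ratio was 0.84 with normexp and 0.96 with normexp and loess.

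Of 7 genes of the nucleus, transcription and the cell cycle, 5 were higher in IP and none (0) lower, with a median of 1.14. Taf1a, a subunit of the initiation factor of RNA polymerase I, read 2471 in IP and 578 in Sup, a log2 ratio of 2.08 ± 0.12 (n = 9 spots). Nup50, a nucleoporin of the basket side of the pore, read 10717 and 2900.0, a log2 ratio of 1.87 ± 0.09 (n = 9 spots). Both were past 2-fold under all 12 alternative settings. Trp53rka, a kinase that can phosphorylate p53, read 425 in IP and only 82.8 in Sup, a log2 ratio of 2.34 ± 0.23 (n = 10 spots) that was 0.94 with normexp. Carhsp1, a cold-shock domain protein that binds RNA, and Alkbh4, a dioxygenase of the family that also holds FTO and ALKBH5, lay closer to the limit. Carhsp1 read 19049.8 in IP and 8536 in Sup (1.14 ± 0.11, n = 10 spots), and Alkbh4 read 1529.8 and 746 (1.02 ± 0.12, n = 10 spots). With the authors' value table these ratios were 0.75 and 0.62, within 2-fold. E2f1, a transcription factor of the entry into S phase, read 342 in IP and 237 in Sup (0.51 ± 0.20, n = 10 spots). Lhx1, a homeobox factor of kidney and head development, was the 1 gene of the 7 below 0 at -0.72 ± 0.25 (n = 9 spots), with signals of 545 and 889.8, and SPINKEIN scaling put it at 0.04.

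Endosome and membrane traffic genes included 2 of 4 that were higher in IP, with a median of 1.31. Rab5a, the GTPase that marks early endosomes, read 14301 in IP and 3439.5 in Sup, a log2 ratio of 2.04 ± 0.08 (n = 9 spots). Uhrf1bp1l, a lipid transfer protein found on endosomal vesicles, read 51257 and 12731.5, a log2 ratio of 1.99 ± 0.11 (n = 10 spots). Both were bright and past 2-fold under all 12 alternative settings. Tm9sf1, a membrane protein with several transmembrane spans, read 13949 and 8933 (0.63 ± 0.07, n = 10 spots). Anxa8, an annexin that binds membranes in the presence of calcium, read 749 and 1105 (-0.58 ± 0.08, n = 9 spots), and was 0.18 under SPINKEIN scaling. Atg3, the enzyme that joins LC3 to lipid during autophagy, was dim at 157 and 142 (0.13 ± 0.15, n = 8 spots), with a sign that differed under 3 of 11 settings.

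Both redox genes lay below 0, and 1 of the 2 was lower in IP. Prdx2, a cytosolic peroxiredoxin that reduces hydrogen peroxide, read 18305.6 in IP and 52394.5 in Sup. Its log2 ratio of -1.53 ± 0.08 (n = 10 spots) was the lowest of the 41 genes, and ran from -1.93 to -0.78 over the alternative settings. Gsta4, the glutathione transferase that clears lipid aldehydes, read 1826 and 2827 (-0.65 ± 0.07, n = 10 spots), and was 0.11 under SPINKEIN scaling. Of the creatine and lipoprotein pair, Gamt, the enzyme of the last step of creatine synthesis, read 879.7 and 1153 (-0.41 ± 0.13, n = 10 spots). Apoe, the apolipoprotein of remnant particles, read 57745.5 and 53091.7 (0.11 ± 0.05, n = 7 spots). Neither reached 2-fold, and the sign of Gamt was turned by SPINKEIN scaling, that of Apoe by the authors' constants and by loess.

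Among 3 membrane signalling genes, 1 was higher in IP, with a median of 0.63. Bambi, a pseudoreceptor that inhibits the TGF-beta pathway, read 3067 in IP and 1399 in Sup, a log2 ratio of 1.12 ± 0.05 (n = 9 spots), and was 0.72 with the authors' value table. Lhfp, a tetraspan membrane protein first found at a lipoma breakpoint, read 6102 and 3893.5 (0.63 ± 0.05, n = 10 spots). Cav2, a caveolin of the plasma membrane pits that are abundant in fat cells, read 1898 and 1930.2. Its ratio of -0.04 ± 0.10 (n = 10 spots) lay within its spot SD of 0, and its sign differed under 3 of 12 settings.

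All 3 genes of the MHC class I and immune group lay above 0 and none (0) was past 2-fold, with a median of 0.72. H2-Q7, a class I molecule, read 52555.6 in IP and 27397 in Sup (0.92 ± 0.09, n = 10 spots). H2-M2, another class I gene, read 22081 and 13221 (0.72 ± 0.07, n = 10 spots). Gsdmd, whose cleaved form makes pores in the membrane, read 6313 and 4328 (0.53 ± 0.11, n = 9 spots). Members of this family are alike in sequence, as are Rps4l, Actb, the olfactory receptors and Trp53rka with their relatives. Whether their probes also took up RNA of a close copy was not tested, since probe sequences are not used here.

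Genes often taken as references did not share 1 ratio. Gpi1, the phosphoglucose isomerase of glycolysis, read 120951 in IP and 67480.1 in Sup, a log2 ratio of 0.83 ± 0.08 (n = 9 spots). Actb, cytoplasmic beta-actin, read 946 and 1405 (-0.59 ± 0.07, n = 10 spots), and was 0.17 under SPINKEIN scaling. The spots of the genes did not overlap, from 0.68 to 0.90 for Gpi1 and from -0.66 to -0.49 for Actb. Dnajc11, a J-domain protein that helps shape mitochondrial cristae, read 5279.6 and 1517, a log2 ratio of 1.78 ± 0.07 (n = 9 spots), past 2-fold under all 12 alternative settings. Rps4l, a copy of the ribosomal protein gene Rps4x, read 21639 and 24034 (-0.17 ± 0.08, n = 10 spots), with a sign that differed under 2 of 12 settings.

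The remaining genes included few past 2-fold. Of the neural and olfactory group, 3 of 4 were seen in both fractions, none (0) past 2-fold, at 0.59 for Mbp, 0.32 for Olfr1307 and -0.48 for Olfr166. Their signs were turned by the authors' constants for Olfr1307 and by SPINKEIN scaling for Olfr166. Cep41, a centrosomal protein needed for the glutamylation of tubulin in cilia, read 606 in IP and 198 in Sup (1.60 ± 0.20, n = 10 spots), and was 0.95 with normexp. Hyal3, of the hyaluronidase family, gave 0.63 ± 0.17 (n = 8 spots). Spats1, named for its expression in the testis, gave -0.85 ± 0.15 (n = 8 spots). The ratios of Mzb1, Hspb7, Duox1 and Chgb lay between -0.39 and 0.29, and each changed sign under at least 1 of the settings tried. Il2, the cytokine of activated T cells, was well above background in 7 of 10 Sup spots and 4 of 10 IP spots. By the detection rule it was counted as detected in Sup only, with a bound of 1.12-fold. Its signals were only 42.4 in IP and 53.0 in Sup. The ratios of its spots ran from -1.73 to 0.29 (SD 0.59), on both sides of 0, so the bound lies within the spot error. Gabrg1, a subunit of a GABA receptor, Kcnn2, a potassium channel, and Tyr, the melanin enzyme, were not well above background in either fraction, with 0 spots each.

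In EP3 cKO preadipocytes, 36 of the 41 genes had a ratio of the same sign, and 9 of the 12 genes that were higher in IP in control were higher there too. The share of all probes with the same sign is not given here, and both arrays share the probes, the dye orientation and the processing. Of the probes seen in both fractions of the cKO array, 16.5% were higher and 14.1% lower. Of all probes higher in control and seen in both fractions of both arrays, 73.7% were also higher in cKO. Rab5a was 2.04 in control and 1.87 in cKO, Uhrf1bp1l 1.99 and 2.02, Cpt1a 1.46 and 1.34, and Prdx2 -1.53 and -1.28. Wider apart were Trp53rka at 2.34 and 1.09, Bambi at 1.12 and 0.31, and Pex11a at -1.20 and -0.63. Cav2 had -0.04 in control and -1.48 in cKO, Lhfp 0.63 and -0.48, E2f1 0.51 and -0.54, and Rps4l -0.17 and 0.58. Each genotype is 1 pool on 1 array, so these differences have no test. A different mix of cells in the pool and a different amount of RNA per cell cannot be told apart.

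Most probes carry no gene name in the files, but their names fall into series, and of the 3 large series ASMM10SM lay farthest to the unbound side. Probes of the ASMM10SM series were seldom higher in IP and supplied most of the extreme low ratios on the array. What the series stand for was not given in the sources used here. ASMM10EP3A, with 37299 probes seen in both fractions, had a median of -0.04, with 18.8% higher and 16.1% lower. ASMM10EP3B, with 5658 probes, had a median of -0.12, with 13.9% higher and 17.3% lower. ASMM10SM, with 2869 probes, had a median of -0.39, with 127 probes (4.43%) higher and 723 (25.2%) lower. The shares of all probes seen in both fractions were 17.3% and 16.8%. Under SPINKEIN scaling all 3 medians were above 0, at 0.71, 0.63 and 0.37, in the same order. Each probe of these series has 1 spot, so the spot error of the named genes is the only guide to their technical error.

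The difference lay on both sides of the ASMM10SM distribution. In the series 27.1% of probes had a ratio above 0, the middle 50% ran from -1.01 to 0.04, the 5th percentile lay at -3.22 and the 1st at -5.04. In the series, 296 probes were at or below -2, 167 at or below -3 and 54 at or below -4. The array held 60 probes with a ratio at or below -4 in all, so 54 of 60 were of this series, while the series made up 6.24% of all probes seen in both fractions, 1.60% of those higher in IP and 9.37% of those lower. The median scaled log2 signal of its probes was -0.49 in IP and 0.08 in Sup, so the typical probe lay below the median of all probes in IP and close to it in Sup. On the cKO array the series medians were -0.04 for ASMM10EP3A, -0.09 for ASMM10EP3B and -0.28 for ASMM10SM, whose 1st percentile lay at -4.54.

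**Figure D2:**
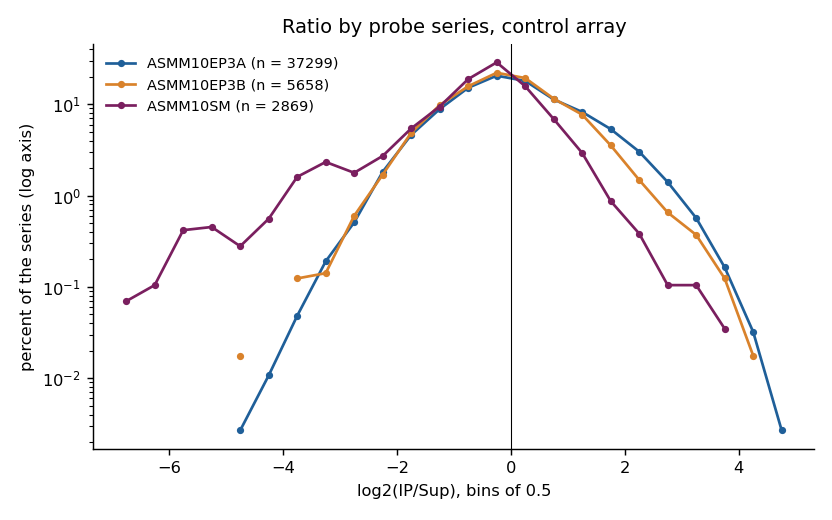
Share of each probe series by log2 ratio of IP to Sup on the control array, in bins of 0.5, with a log axis in percent. The ASMM10SM line (2869 probes) lies below the others above 0 and carries a tail below -4 that ASMM10EP3A (37299 probes) and ASMM10EP3B (5658 probes) nearly lack.

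The gap between the series was wider among brighter probes. All probes seen in both fractions were put in order of the mean log2 signal of both fractions and divided into 10 groups of equal size. The median of ASMM10SM minus that of ASMM10EP3A was -0.05 in the dimmest group, -0.41 in the 5th and -0.79 in the brightest. The share of ASMM10SM probes lower in IP went from 5.47% in the dimmest group to 47.3% among its 93 probes of the brightest. For ASMM10EP3B minus ASMM10EP3A the differences stayed between -0.24 and 0.07. The difference of medians over all brightness groups was -0.35, and it does not depend on how the channels were scaled. It was -0.19 with normexp and -0.17 with normexp and loess.

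**Figure D3:**
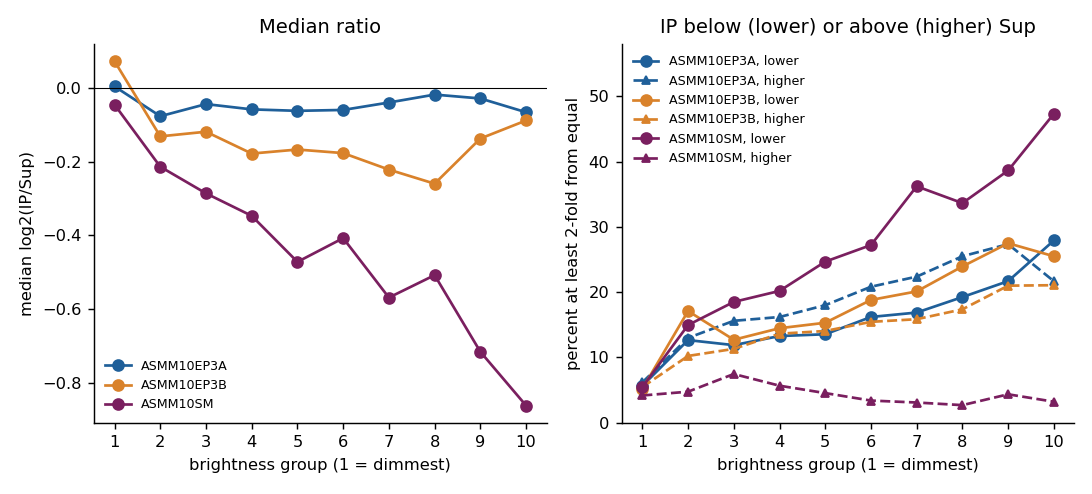
Probe series on the control array by brightness group, from 1 (dimmest) to 10 (brightest). The left panel gives the median log2 ratio of IP to Sup and the right panel the percent of probes at least 2-fold lower (solid) or higher (dashed) in IP. The ASMM10SM median goes from -0.05 to -0.86 and its percent lower from 5.47 to 47.3.

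The probes farthest from the median show the signals behind these ratios. ASMM10SM1100091570 read 111 in IP and 10888.5 in Sup, a log2 ratio of -6.63, and -6.05 in cKO. ASMM10SM1100116273 read 94.5 and 8829, a log2 ratio of -6.56, and -6.10 in cKO. Both were dim in IP and bright in Sup. The highest bright probes of the series were far less extreme, with ASMM10SM1100049990 at 10519.6 and 2175 (2.26) and ASMM10SM1100123994 at 1755 and 391 (2.15). In cKO they were at 2.20 and 2.18.

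Among ASMM10EP3A probes brighter than the median, the extremes lay at similar distances on both sides of 0. The lowest ratio of the whole series, -4.55, was that of a dimmer probe. ASMM10EP3A118540569 read 7883 in IP and 311 in Sup, 25.1-fold higher in IP, a log2 ratio of 4.65 that was 4.03 in cKO. ASMM10EP3A103283829 read 2336 and 106 (4.45, and 3.58 in cKO). At the low end ASMM10EP3A100192810 read 143 and 2926 (-4.37, and -4.49 in cKO), and ASMM10EP3A122640870 read 191 and 3368 (-4.16, and -3.01 in cKO). Among ASMM10EP3B probes brighter than the median, the highest were ASMM10EP3B100146679 at 3929 and 202 (4.27) and ASMM10EP3B100248948 at 3845 and 289 (3.72). The lowest were ASMM10EP3B103688684 at 169 and 4275 (-4.68) and ASMM10EP3B106513070 at 654 and 9824 (-3.92). All 4 lay on the same side in cKO, at 3.50, 3.31, -4.45 and -2.50.

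Smaller series were also measured. The 62 probes named SPINKEIN that were seen in both fractions had a median of -0.59, and 18 others were seen in Sup only. The 15 probes named CUST had a median of -0.21 with an SD of 1.42. Of 15 probes named MM9NEGATIVE, 13 were well above background in neither fraction, 1 in Sup only and 1 in both.

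The median ratio varied little between brightness groups, while its spread was wider in the brighter ones. Over the 10 brightness groups the median stayed between -0.12 and 0.01. The Lowess step of the dye normalisation is meant to level the ratio along brightness, so flat medians are no finding of their own. The part of this step in them was not tested. With normexp and no dye normalisation the dimmest and brightest medians were -0.38 and 0.15. In the processed signals the SD went from 0.63 in the dimmest group to 1.40 in the 9th and was 1.35 in the 10th. The share of probes higher in IP went from 5.92% in the dimmest group to 25.1% in the 9th and 21.2% in the 10th, and the share lower from 5.66% to 28.0%. Of the brighter of 2 equal sets of probes, 4999 were higher and 4960 lower, and of the dimmer set 2949 and 2760. The spot SD had the opposite order, 0.22 for the dimmer and 0.10 for the brighter repeated probes. In the dimmest group a probe had to be well above background in both fractions, which bounds how far its ratio can lie from 0.

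**Figure D4:**
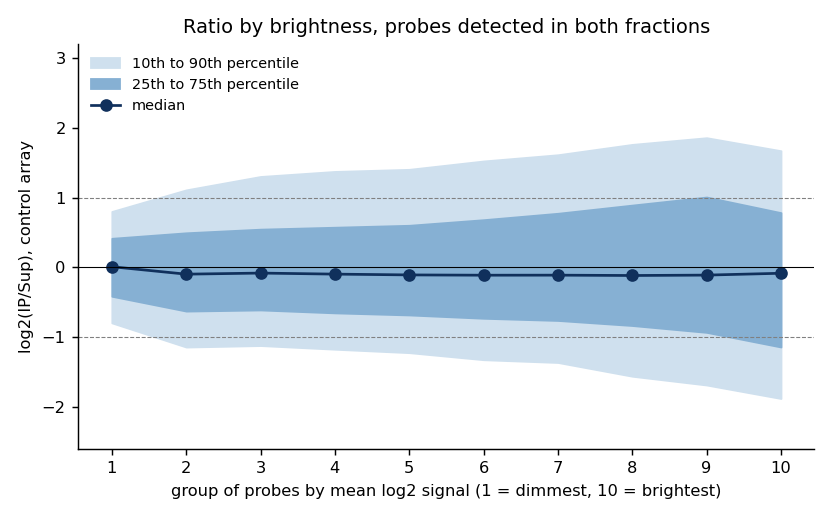
Log2 ratio of IP to Sup on the control array against brightness group, from 1 (dimmest) to 10 (brightest), for the 45949 probes seen in both fractions. The line is the median, the dark band runs from the 25th to the 75th percentile and the light band from the 10th to the 90th, which widens from -0.80 to 0.80 in group 1 to -1.88 to 1.67 in group 10, and dashed lines mark 2-fold.

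How brightness is measured sets the sign of the medians at both ends. When probes were put in order by the Sup signal alone, the dimmest group had a median of 0.41 and the brightest -0.53. By the IP signal alone they were -0.39 and 0.25. Before the dye normalisation of the scanner software the median log2 ratio of background-subtracted signals was 0.68, and in the processed signals it was -0.07.

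Probes detected in 1 fraction only were more often detected in Sup, and their ratios can be given only as bounds. Of the probes named SPINKEIN, 18 were detected in Sup only and 0 in IP only. Sup is also the Cy3 channel, and whether detection differs between the dyes was not tested. The bound sets the signal of the detected fraction against the higher of the probe's own signal in the other fraction and the lowest signal that counted as detected there, 47.8 in IP and 42.8 in Sup. Of the 2059 probes detected in IP only, 877 (42.6%) were at least 2-fold higher in IP by this bound, 215 at least 4-fold and 38 at least 8-fold, with a median bound of 1.83-fold. Of the 3137 detected in Sup only, 686 (21.9%) were at least 2-fold higher in Sup, 103 at least 4-fold and 25 at least 8-fold, with a median bound of 1.44-fold. For 200 of the Sup probes and 1 of the IP probes the bound was under 1 and gives no fold. On these bounds the IP probes were fewer and reached 2-fold in a larger share.

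The ASMM10SM series supplied 255 of the 3137 probes detected in Sup only (8.13%). Sup only were 6.24% of its 4087 probes, against 4.96% of ASMM10EP3A and 5.64% of ASMM10EP3B. Of the 255, 79 (31.0%) had a bound of at least 2-fold, against 21.9% of all Sup-only probes. Of the 25 with a bound of at least 8-fold, 14 were of the series. Of its 107 probes detected in IP only, 35 (32.7%) reached 2-fold, against 42.6% of all IP-only probes. The largest bounds were in this series. ASMM10SM1100047041 read 25.3 in IP, not well above background, and 2415 in Sup, at least 51.1-fold higher in Sup. ASMM10SM1100131784 read 43.3 and 2342, at least 49.5-fold higher in Sup. Both were detected in Sup only on the cKO array as well, at 1507 and 1671. On the IP side, ASMM10EP3A107862063 read 980.0 and 38.2 and was at least 22.6-fold higher in IP, with 932 and 30.4 in cKO. ASMM10EP3A110221039 read 868 and 35.9, at least 20.05-fold higher in IP, and was seen in both fractions of cKO at 783 and 51.5.

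Detection in 1 fraction differed in how often it was seen again on the cKO array. Of the 3137 control probes detected in Sup only, 2167 were detected in Sup only in cKO, 497 in both fractions, 26 in IP only and 447 in neither or with an outlier flag. Of the 2059 detected in IP only, 664 were IP only in cKO, 540 were in both, 242 in Sup only and 613 in neither or with an outlier flag. The cKO array had 1150 probes detected in IP only and 4891 in Sup only.

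For probes seen in both fractions of both arrays, 43911 in number, 7756 were higher in IP in control and 7156 in cKO, and 5719 were shared, 73.7% of the control and 79.9% of the cKO probes. Lower in IP were 7476 in control and 6259 in cKO, with 4925 shared, 65.9% and 78.7%. In the ASMM10SM series 522 lower probes were shared, 74.3% of 703 in control and 88.5% of 590 in cKO. Of its higher probes 67 were shared, 54.5% of 123 in control and 50.4% of 133 in cKO. There were 5 probes that were higher in control and lower in cKO, and 2 with the reverse. The arrays share the design, the dye orientation and the scanner's processing, so a bias of a probe or dye would also be shared.

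The ratio also moved with the number in the probe name. Cut into blocks of 1000000 numbers, the ASMM10EP3A probes of blocks 101 to 118 had medians near 0, and those from block 119 on leaned to Sup. The blocks were chosen after the values were seen, with limits at the largest falls of the median, and the meaning of the numbers was not given in the sources used here. In the 18 blocks from 101 to 118, with 23220 probes, block medians lay between -0.05 and 0.13, and 20.2% of probes were higher and 14.4% lower. In the 11 blocks from 119 to 129, with 7008 probes, they lay between -0.46 and -0.25, with 703 probes higher and 1576 (22.5%) lower. The ranges of medians did not overlap, which a limit set at the largest fall favours. In finer bins the fall was gradual. Bin medians went from 0.09 at 118600000 to -0.02, -0.13, -0.24 and then -0.39 at 119400000. On the cKO array the ranges of block medians were -0.06 to 0.07 and -0.37 to -0.19. The later probes lay below the earlier ones in all 10 brightness groups, by a median difference from -0.13 in the dimmest to -0.49 in the brightest. Probes of blocks 119 to 123 were about as bright as the earlier ones, with block medians of mean scaled log2 signal from -0.11 to 0.10, and those of 124 to 129 were dimmer, from -0.57 to -0.37.

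**Figure D5:**
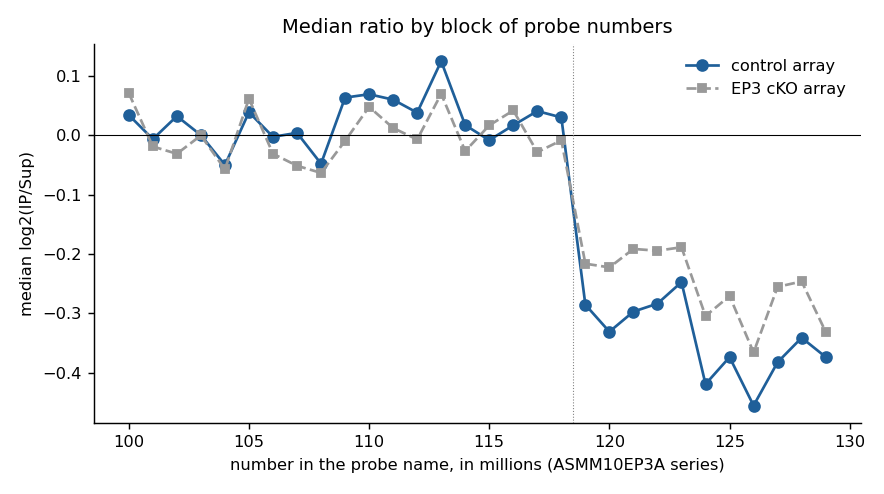
Median log2 ratio of IP to Sup of ASMM10EP3A probes by the number in the probe name, in blocks of 1000000 numbers, for the control array (blue circles) and the EP3 cKO array (grey squares). Control medians lie between -0.05 and 0.13 for blocks 101 to 118 and between -0.46 and -0.25 for blocks 119 to 129. The dotted line marks the limit set between these blocks.

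A further stretch inside the first block stood lower still. The 5476 probes numbered 100000000 to 100199999 had a median of 0.10, with all 20 bins of 10000 numbers between -0.01 and 0.21. The 504 probes numbered 100200000 to 100259999 had a median of -0.56, with all 6 bins between -0.80 and -0.27, and 31.9% were lower in IP against 5.56% higher. The limits of this stretch were set at the largest fall and the largest later rise between bins, so the low bins follow from that choice, and the next 3 bins, of 20, 18 and 17 probes, had medians of 0.22, 0.0030 and 0.18. In ASMM10EP3B the blocks 100 to 104 had medians between -0.17 and -0.04, and blocks 105, 106 and 107 had -0.25, -0.37 and -0.42.

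In the ASMM10EP3A series, probes with adjacent numbers had more similar ratios than probes farther apart. In ASMM10EP3B the correlation on the control array did not show this, while the median absolute difference was slightly smaller for the nearest pairs. In ASMM10EP3A, 2490 pairs of neighbours whose numbers differ by 1 or 2 had a correlation of ratios of r = 0.37 (Spearman's rho 0.36) and a median absolute difference of 0.60. For 1338 pairs 3 to 10 apart r was 0.22, for 6317 pairs 11 to 100 apart 0.036, and for 27153 pairs over 100 apart 0.036 with a median absolute difference of 0.99. The same pairs 1 or 2 apart correlated in brightness with r = 0.26. On the cKO array 2456 pairs 1 or 2 apart had a correlation of ratios of r = 0.33. In ASMM10EP3B the 807 nearest pairs had r = 0.034, against 0.043 for pairs over 100 apart. Their median absolute difference was 0.84 against 0.93, and 58.5% against 52.9% lay within 2-fold of each other. On the cKO array r was 0.084 against 0.028. In ASMM10SM the 106 nearest pairs had r = 0.19 but a median absolute difference of 0.91, no smaller than the 0.84 of pairs 11 to 100 apart. For its pairs over 100 apart this difference was 0.93. These are descriptions across probes of 1 array, which share the RNA, the dyes and possibly the transcript, and whether neighbours address the same transcript was not tested.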

How the data were processed

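Per the labels, IP (Cy5) and Sup (Cy3) RNA were labelled as cRNA in separate reactions. Per the submitters' processing notes, the array was read with Agilent Feature Extraction 11.0.1.1. The deposited scanner file gives a linear intensity, the processed signal, after background subtraction and normalisation of the dyes by a linear and a Lowess step, per the file headers. Pixel medians, and the log10 ratio of the deposited scanner file, which gave the direction Cy5 over Cy3, served as checks and alternatives. In the authors' deposited value table, 48973 probes have log2 values. Each column equalled log2 of the processed signal minus 1 constant, 11.92 for IP and 11.51 for Sup (within 0.05 for at least 99.96% of 48934 matched probes), and the column medians were -3.36 and -2.97. The origin of the constants was not given in the sources used here. Value columns without a mapped sample numbered 0.

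The array held 62976 spots, of which 1439 had a control type and were left out. A further 59 carried an outlier flag. A fraction was detected if at least 0.5 of a probe's remaining spots were well above background. Spots were averaged on the log2 scale, and both channels were scaled to their medians over probes detected in both. No p-value was computed (0). Gene symbols came from RefSeq's mouse table through accessions. Named genes were all accession probes with a symbol, and named probes were the 2 highest and 2 lowest bright ones of each large series and the 2 largest bounds each way. Members, lists and rules were chosen with earlier results of these data known. In the counts, 1 gene is included that is not reported here singly. The calculation was tested on simulated data. Alternatives covered background correction (normexp with an offset of 50), dye normalisation, scaling, filters, spot averaging and thresholds. Tools were Python 3.11.15, numpy 2.4.6, pandas 2.3.3, matplotlib 3.10.9, R 4.3.3 and limma 3.58.1.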

Additional observations from a re-analysis of the deposited data

How the results depend on the processing

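Of 40 genes shown, the 14 past 2-fold kept their direction in each of the 12 settings that measured them (11 settings for Ppara and Trp53rka), and 11 were still past it with normexp, 11 with loess, 12 with SPINKEIN scaling and 11 with the authors' value table. The settings that only filter probes leave a gene's ratio as it is, so they could not change a direction. Leaving out the channel scaling moved the median by only 0.016, and 75th percentile scaling by only 0.0098. The sign of 10 genes within 2-fold differed under SPINKEIN scaling, of 5 with the authors' table, 5 with normexp and 2 with loess. Counts higher and lower in IP were 16920 and 2250 with SPINKEIN scaling, 4994 and 13000 with the authors' table, 4878 and 4211 with loess, 12029 and 13360 at 1.5-fold, and 2115 and 1408 at 4-fold. Normexp alone gave 3778 lower. The SD over probes was 0.85 with loess and 0.87 with normexp, and in the dimmest group 0.17 with either and 0.79 with brightness by Sup. The dimmest and brightest medians were -0.38 and -0.48 with the authors' table, -0.38 and 0.15 with normexp, -0.39 and 0.25 by IP alone, and 0.41 and -0.53 by Sup alone. Medians of ASMM10EP3A, ASMM10EP3B and ASMM10SM were 0.71, 0.63 and 0.37 with SPINKEIN scaling and -0.44, -0.52 and -0.78 with the authors' table, and ASMM10SM had -0.22 with loess. ASMM10SM minus ASMM10EP3A was -0.17 with loess and -0.19 with normexp, and the late minus the early number blocks -0.18 with loess. Probes at or below -4 were 77.7% ASMM10SM with the authors' table. With bounds from a probe's own signal, 1498 IP-only and 1907 Sup-only probes reached 2-fold. With the bounds of the report, 215 and 103 reached 4-fold. The offset of 50 in normexp draws ratios of dim probes to 0 by construction, and other causes were not tested. One alternative, background-subtracted signal with no dye normalisation, was chosen after seeing the data, as were the number blocks and the difference of series. No paired analysis was possible because the comparison is within 1 array, with 1 IP and 1 Sup sample, which make 1 pair. Signal over background limits the dim probes, and dye and fraction cannot be told apart.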

Other observations

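Control spots outside the array's own content also name genes. Both mouse GAPDH probes, for the glycolytic dehydrogenase, lay below 0. Probe 3 read 30304 in IP and 79662.5 in Sup, a log2 ratio of -1.42 ± 0.10 (SD, n = 10 spots), and probe 5 read 8261 and 16896, a ratio of -1.06 ± 0.08 (n = 10 spots). The mouse PGK1 probes, for a kinase of the same pathway, differed widely in signal. PGK1 probe 3 read 105650 in IP and 108282 in Sup, a ratio of -0.06 ± 0.05 (n = 10 spots). PGK1 probe 5 read only 471 and 614, a ratio of -0.41 ± 0.13 (n = 10 spots). Both PGK1 probes lay above the GAPDH probes and below the 0.83 of Gpi1. Of 12 ERCC probes, which address synthetic RNA, 5 were well above background in both fractions, with ratios from -2.29 to 0.59. Whether such RNA was added to these samples was not given in the sources used here. Under SPINKEIN scaling, which moves every ratio by 0.76, the PGK1 probes would lie above 0.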
